A study of Homo sapiens with 8 samples.

Results

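The regions described here are TAZ-bound sites at the promoters of long non-coding RNAs (lncRNAs). They are the entries of the peak list made after 72 h of doxycycline (Dox) whose summit, the base with the highest signal, was at most 1 kb from a transcription start site (TSS) of an annotated lncRNA and more than 3 kb from the TSS of every protein-coding gene. A total of 1237 of the 38667 peaks at 72 h met this rule, or 3.20% (exact 95% binomial interval 3.03 to 3.38), out of 55334 peaks in the 4 lists of the series. They belonged to 1141 lncRNA genes, each peak being assigned to the nearest lncRNA TSS. The cells were MCF10A, a non-transformed human mammary epithelial line, transduced with a Dox-inducible TAZ-4SA, a form of TAZ in which serines phosphorylated by the LATS kinases are replaced. One culture condition was without Dox and the other 3 received 0.05 µg/ml Dox for 24, 48 or 72 h. Each condition had 1 chromatin immunoprecipitation (ChIP) library with an antibody to TAZ and 1 with IgG, and the labels name the same peak list for both. All conditions came from the same transduced line, which carries the TAZ-4SA construct also without Dox, and no RNA was measured in these files.

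LncRNAs are transcripts without a long open reading frame, and many are made by RNA polymerase II from promoters that look like those of protein-coding genes, while others start at enhancers. Some are known mainly as hosts whose introns carry microRNAs or small nucleolar RNAs (snoRNAs), and others, such as MALAT1, NEAT1 and NORAD, act as RNAs in the nucleus or the cytoplasm. TAZ is a transcriptional co-activator at the end of the Hippo pathway. It cannot contact DNA by itself and is brought there mainly by the TEAD factors, often beside AP-1.

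The sequence under the summits differed among these promoters, and 6 windows are shown as examples with and without a TEAD match at lncRNAs described below. Each runs from 100 bp before to 100 bp after the 72 h summit on the plus strand of hg38. In the first 4 the capitals mark matches to the TEAD motif, ACATTCC or GCATTCC on either strand. They lie at LINC02537 (chr6:43851210-43851410), at ENSG00000250934 (chr3:126267391-126267591), at MIRLET7A1HG (chr9:94166622-94166822) and at MIR100HG (chr11:122038661-122038861).
LINC02537: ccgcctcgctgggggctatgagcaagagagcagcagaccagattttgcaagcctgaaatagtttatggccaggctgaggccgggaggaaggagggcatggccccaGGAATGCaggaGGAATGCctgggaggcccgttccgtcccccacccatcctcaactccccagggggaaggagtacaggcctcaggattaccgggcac
ENSG00000250934: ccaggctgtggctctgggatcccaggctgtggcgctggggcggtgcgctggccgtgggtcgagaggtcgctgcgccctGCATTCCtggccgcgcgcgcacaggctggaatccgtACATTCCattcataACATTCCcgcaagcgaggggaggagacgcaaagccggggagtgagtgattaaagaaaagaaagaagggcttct
MIRLET7A1HG: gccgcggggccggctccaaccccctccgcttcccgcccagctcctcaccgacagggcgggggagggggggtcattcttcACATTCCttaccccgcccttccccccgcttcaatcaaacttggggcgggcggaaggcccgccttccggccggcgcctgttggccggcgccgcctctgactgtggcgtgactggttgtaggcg
MIR100HG: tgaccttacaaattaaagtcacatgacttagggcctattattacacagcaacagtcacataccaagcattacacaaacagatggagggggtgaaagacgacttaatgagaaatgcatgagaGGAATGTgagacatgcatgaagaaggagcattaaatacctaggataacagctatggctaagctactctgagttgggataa
The MIRLET7A1HG window also holds 4 SP/KLF matches and 1 ETS match, which are not marked. The other 2 windows had no TEAD match, and those of JPX and SNHG16, not shown, had no TEAD, AP-1, ETS or SP/KLF match. They lie at NORAD (chr20:36050942-36051142), where the capitals mark the ETS motif CCGGAAG, and at MALAT1 (chr11:65497576-65497776), where they mark the SP/KLF motif GGGCGGG, each on either strand.
NORAD: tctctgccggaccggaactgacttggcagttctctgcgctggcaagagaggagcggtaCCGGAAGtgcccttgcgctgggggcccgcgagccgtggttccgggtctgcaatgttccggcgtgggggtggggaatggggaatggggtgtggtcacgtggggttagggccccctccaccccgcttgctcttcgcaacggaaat
MALAT1: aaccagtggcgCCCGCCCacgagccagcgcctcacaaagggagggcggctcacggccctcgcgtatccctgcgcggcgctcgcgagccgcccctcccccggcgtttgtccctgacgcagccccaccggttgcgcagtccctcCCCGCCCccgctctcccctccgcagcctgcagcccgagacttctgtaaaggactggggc

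There was 1 TAZ library per condition, so no difference between conditions could be tested against replicates, and no p-value is given. Intervals are exact binomial intervals and cover counting error only, and reads without molecular identifiers need not be independent molecules. The lists hold no read totals. They gave the fold enrichment of a peak, which is the ratio of ChIP fragments to the local background with 1 added to both, and −log10 of its p-value, from which the fragments over each summit were solved. The median over the lncRNA promoter peaks at 72 h was 33 fragments. In the lists without Dox and at 24, 48 and 72 h the lowest −log10 p was 5.16, 5.27, 4.52 and 3.94, and the lowest background was 1.49, 1.42, 2.84 and 2.01 fragments. A promoter with no peak in an earlier list had therefore not passed a stricter limit in a library of another depth, and its absence is not a measurement of no binding. The cells were measured in bulk, so binding in more cells and more binding per cell cannot be told apart.

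The same rule applied to each list found 99 lncRNA promoter peaks among 2431 without Dox, 84 among 2469 at 24 h, 347 among 11767 at 48 h and 1237 at 72 h. As a share of the list these were 4.07% (3.32 to 4.94), 3.40% (2.72 to 4.20), 2.95% (2.65 to 3.27) and 3.20%. The number was larger in the longer lists, and the intervals of the shares overlapped except between the lists without Dox and at 48 h. Peaks found early were mostly found again. At 72 h a peak overlapped 89.9% (82.2 to 95.0) of the 99 lncRNA promoter peaks without Dox, all 84 of those at 24 h and 97.7% (95.5 to 99.0) of those at 48 h. Among peaks without Dox, the same share was 96.3% at protein-coding promoters and 76.6% at distal sites, so in that list lncRNA promoters lay between these classes. Among peaks at 24 h it was 99.6% and 96.4%, both inside the interval of the lncRNA promoters (95.7 to 100). Among peaks at 48 h it was 98.2%, inside their interval, and 94.8%, just below it. At these times most peaks of every class were found again.

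Looking back from 72 h, 84 of the 1237 peaks overlapped a peak without Dox by at least 1 bp, or 6.79% (5.45 to 8.34), against a background of 5.56% over all peaks at 72 h. At 24 h it was 86 peaks, or 6.95% (5.60 to 8.52), against 6.12%, and at 48 h 335 peaks, or 27.1% (24.6 to 29.7), against 28.4%. The remaining 851, or 68.8% (66.1 to 71.4), overlapped no earlier peak, against 67.9%. These shares were near the background. They differed from those of the other classes of site. Of the 10850 peaks within 1 kb of a protein-coding TSS, 12.2% (11.6 to 12.8) overlapped a peak without Dox, 2.53% (2.25 to 2.85) one at 24 h and 9.32% (8.78 to 9.88) one at 48 h. Of the 21748 distal peaks, more than 3 kb from any TSS, the shares were 2.43% (2.23 to 2.64), 7.63% (7.28 to 7.99) and 37.2% (36.5 to 37.8). In each of these lists the lncRNA promoters lay between protein-coding promoters and distal sites, and their interval overlapped that of the distal sites at 24 h and that of neither class without Dox or at 48 h.

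**Figure D1:**
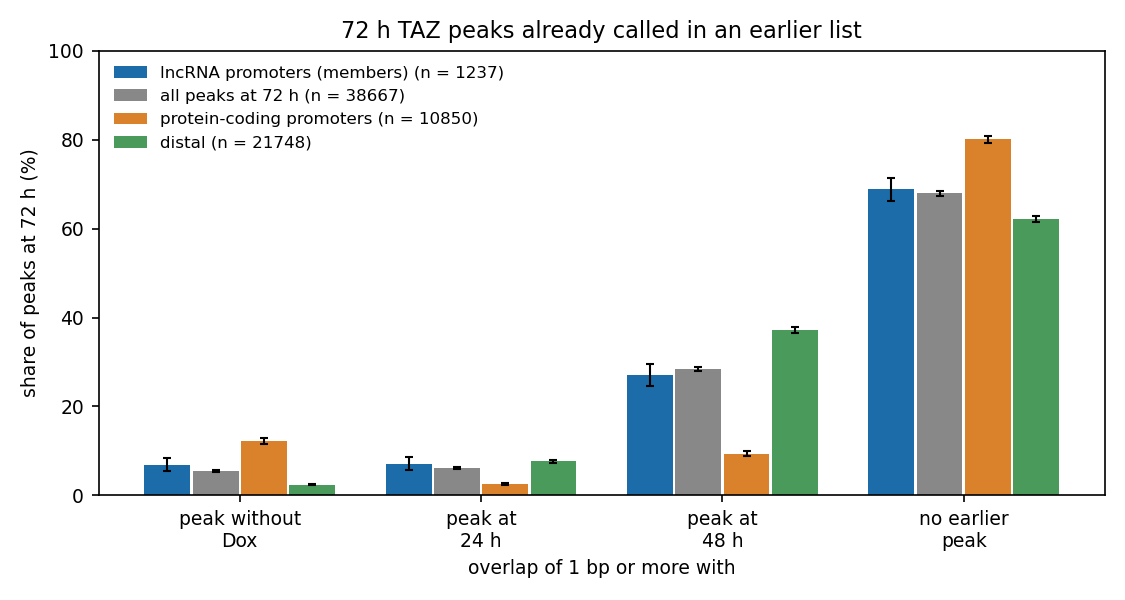
Share of the peaks at 72 h (y axis, percent) that overlap a peak of the list without Dox, the list at 24 h, the list at 48 h or no earlier list (x axis), for lncRNA promoters, all peaks, protein-coding promoters and distal sites, with exact 95% binomial intervals as error bars. The lncRNA promoter bars (6.79%, 6.95%, 27.1% and 68.8%) lie close to those of all peaks and between those of protein-coding promoters and distal sites.

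The overlaps depended on how much of a peak had to be shared. Lists from earlier times held narrower peaks, with a median width at lncRNA promoters of 598 bp without Dox, 434 bp at 24 h and 647 bp at 48 h against 855 bp at 72 h. When at least 50% of both intervals had to overlap, 2.51% of the 1237 peaks matched a peak without Dox, 0.485% one at 24 h and 16.3% one at 48 h. The summits themselves lay close together. Between 72 h and the overlapping earlier peak they were a median of 42 bp apart without Dox, 29 bp at 24 h and 33 bp at 48 h, and within 200 bp of each other at 75%, 91.9% and 91.3% of the matched promoters.

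The combinations of lists that called a promoter separated peaks of different strength. In all 4 lists there were 23 promoters, or 1.86% (1.18 to 2.78) against a background of 1.13%. In the lists at 24, 48 and 72 h and not without Dox there were 57, or 4.61% (3.51 to 5.93) against 4.62%, and at 48 and 72 h 241, or 19.5% (17.3 to 21.8) against 21.7%. Without Dox and at 72 h, with no peak at either time between, there were 45, or 3.64% (2.67 to 4.84) against 3.34%. The median fold enrichment at 72 h was 36.8 for promoters in all 4 lists, 20.7 for those at 24, 48 and 72 h, 11.8 for those at 48 and 72 h, 7.80 for those without Dox and at 72 h, and 5.94 for those at 72 h alone. Promoters called at more of the Dox times were thus also the stronger ones at 72 h. The earlier lists had stricter limits, as given above, and the part of this selection in the order was not tested. The same medians were not taken over all peaks. Of the 101 promoters at a fold enrichment of 20 or more, 96 had a peak at 48 h. The same share was not counted over all peaks of this strength, so it is not shown to be particular to lncRNA promoters. The median over all 1237 was 7.13 (quartiles 5.11 and 11.1), beside 6.40 at protein-coding promoters and 7.64 at distal sites.

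**Figure D2:**
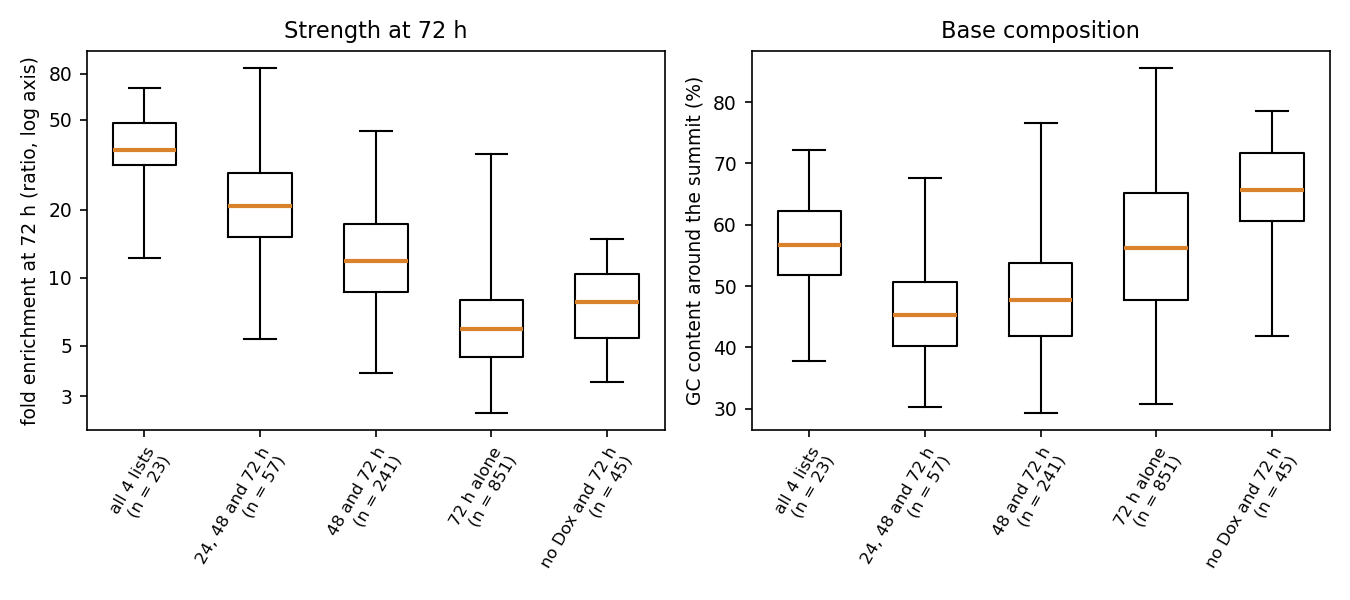
Fold enrichment at 72 h (left, ratio on a log axis) and GC content of the 201 bp around the summit (right, percent) of lncRNA promoter peaks, grouped by the lists that called them (x axis, with the number of promoters). Boxes span the quartiles with the median in orange and whiskers reach the extremes; the median fold enrichment goes from 36.8 in all 4 lists to 5.94 at 72 h alone, and the median GC content is highest, 65.7%, for promoters called without Dox and at 72 h.

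At promoters called in 2 lists the fold enrichment was mostly higher at 72 h. The median ratio of 72 h to no Dox was 1.98 over 84 promoters (quartiles 1.18 and 4.48). It was at least 2 at 41 of them, or 48.8% against a background of 47.1%, and under 1 at 13, or 15.5% against 22.7%. The ratio of 72 h to 24 h had a median of 2.94 over 86 promoters and was at least 2 at 63, or 73.3% against 74.7%, and under 1 at 1, or 1.16% against 2.79%. The ratio of 72 h to 48 h had a median of 2.10 over 335 promoters. It was at least 2 at 178, or 53.1% against 44.9%, and under 1 at 15, or 4.48% against 9.17%. The counts against no Dox and 24 h were near the background, and that against 48 h was above it. At protein-coding promoters the median ratio to 48 h was 2.22 and at distal sites 1.81, so lncRNA promoters again lay between them. A promoter enters such a ratio only if it passed the limit of both lists.

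The strongest lncRNA promoter peak was at LINC02537 (chr6:43850703-43851941), an intergenic lncRNA, 73138 bp from the TSS of VEGFA, which encodes an angiogenic growth factor. It had no peak without Dox and fold enrichments of 6.80, 18.8 and 85.0 at 24, 48 and 72 h. The summit lay 993 bp downstream of the nearest annotated start, near the limit of the rule, beside 2 TEAD matches. At ENSG00000250934 (chr3:126266067-126268286) the fold enrichment was 5.19 without Dox and then 12.7, 17.0 and 69.4 at 24, 48 and 72 h, beside 3 TEAD matches, and the nearest protein-coding TSS, that of ALDH1L1, was 69497 bp away. Both promoters had a higher value in each later list.

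Other strong promoters did not follow the order of the times. ENSG00000230773 (chr2:48111078-48112321) had 13.8 without Dox and then 8.33, 14.7 and 61.8 at 24, 48 and 72 h. LINC01836 (chr19:781930-783353) had 9.81, 15.4, 11.5 and 59.5 in the same order of lists. At MIRLET7A1HG (chr9:94165707-94167483), the host of 3 let-7 microRNAs, the values were 10.5, 14.6, 13.7 and 43.7. In these promoters the first 3 lists gave values close to each other and the list at 72 h stood apart. LINC01186, LINC02098, LINC01503, ENSG00000225676 and ENSG00000289920 completed the strongest promoters found in all 4 lists, together with ENSG00000276850, whose summit sequence has near-identical copies. Their values lay between 5.63 and 8.29 without Dox and between 43.9 and 53.8 at 72 h. ENSG00000225676 (chr22:30205157-30207671) has its summit 39618 bp from the TSS of LIF, the gene of a cytokine of the interleukin-6 family. LINC02098 (chr11:128207111-128209060) had 5.94 without Dox and then 15.7, 31.2 and 44.7 at 24, 48 and 72 h.

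Among promoters with a peak at 24, 48 and 72 h and none without Dox, LINC02537 was followed by ENSG00000289002 (chr2:213187640-213189849), with 12.6, 26.2 and 64.8, and by ENSG00000267288 (chr17:45170673-45173254), with 8.76, 11.7 and 62.5. ENSG00000259754 (chr15:47811861-47813167), 46051 bp from SEMA6D, had 15.3, 26.4 and 49.7. The highest value at 24 h was 24.3, at ENSG00000227479 (chr2:240255280-240256746), which then had 24.4 at 48 h and 44 at 72 h. ENSG00000226919 (chr1:240765079-240767259) had reached 35.2 at 48 h and had 36.8 at 72 h. The time of the largest step thus differed from promoter to promoter. Of the 15 promoters with the highest fold enrichment at 72 h, all had a peak at 48 h, 13 had one at 24 h, 9 had one without Dox and 12 held a TEAD match. The strongest peaks of other classes were not counted in this way.

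MIR130AHG (chr11:57637243-57639767), the host of the microRNA miR-130a, had no peak without Dox or at 24 h, 9.27 at 48 h and 44.8 at 72 h. Its summit lay 14 bp from the TSS and held no TEAD or AP-1 match. It was the strongest promoter first called at 48 h.

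**Figure D3:**
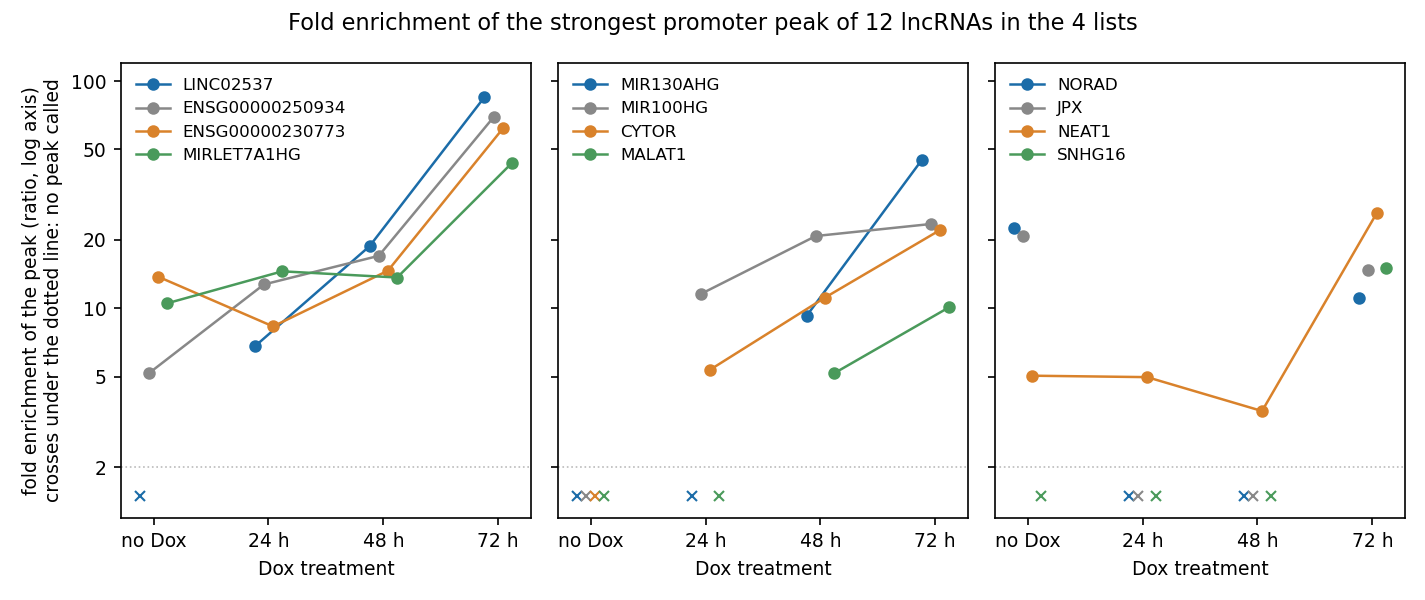
Fold enrichment (y axis, ratio on a log scale) of the strongest promoter peak of 12 lncRNAs in the lists without Dox and at 24, 48 and 72 h of Dox (x axis), with a point for each list that called a peak and a cross under the dotted line for each that did not. LINC02537 goes from no peak to 85.0, whereas NORAD and JPX have 22.7 and 20.8 without Dox, no peak at 24 and 48 h, and 11.1 and 14.8 at 72 h; the no-Dox point of NEAT1, the 48 h point of MALAT1 and the 24 h point of CYTOR come from overlapping peaks with summits 3478, 1291 and 1047 bp away.

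The promoters called at 72 h alone were weaker, and 5 of the 10 strongest lay in introns of protein-coding genes. ENSG00000262319 (chr17:19144225-19145030), in an intron of GRAPL, reached 35.3, and near-identical sequence exists at another site of the genome. ENSG00000237126 (chr2:232611170-232612084), in an intron of EFHD1, had 22.4, and ENSG00000228923 (chr22:24516119-24516895), in an intron of UPB1, had 20.9. Of the 10 strongest, 2 held a TEAD match. MIR1915HG (chr10:21495349-21497687) had 18.4, and ENSG00000242568 (chr3:55349864-55350712), 119900 bp from WNT5A, had 17.6.

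Among the 45 promoters called without Dox and at 72 h and at neither time between, 11 had the higher value without Dox, and 2 of them are described first. NORAD (chr20:36050409-36051363), an abundant cytoplasmic lncRNA that binds PUMILIO proteins, had 22.7 without Dox and 11.1 at 72 h. JPX (chrX:73943945-73944715), a lncRNA of the X-inactivation centre, had 20.8 and 14.8. These were among 13 of all promoters with a higher value without Dox than at 72 h, of which 10 had a GC content of at least 60% and 1 held a TEAD match. The rest of the 45 were higher at 72 h, such as LINC02934 (chr2:65435767-65437060), 3943 bp from SPRED2, with 5.35 and 14.5, and STAG3L4 (chr7:67302168-67303241), annotated as a lncRNA, with 8.30 and 14.2.

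Sequence under the summit followed the same division. A TEAD match lay within 100 bp of the summit in 274 of the 1237 promoters, or 22.2% (19.9 to 24.6), against 3.88% (3.15 to 4.72) of windows of the same width centred 1000 bp to either side. The share was 27.7% over all peaks at 72 h, 11.1% (10.5 to 11.7) at protein-coding promoters and 35.1% (34.5 to 35.7) at distal sites, and 5.74% (5.50 to 5.98) over windows centred on the 35692 lncRNA start sites that were more than 3 kb from a protein-coding TSS, bound or not. By the lists that called the promoter it was 65.2% (42.7 to 83.6) in all 4 lists, 54.4% (40.7 to 67.6) at 24, 48 and 72 h, 35.3% (29.2 to 41.7) at 48 and 72 h, 15.5% (13.1 to 18.1) at 72 h alone, and 11.1% (3.71 to 24.1) without Dox and at 72 h. Promoters found early under Dox thus carried the motif most often.

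Read the other way, 20.8% (18.2 to 23.5) of the 963 promoters without a TEAD match had a peak at 48 h, 45.6% (39.2 to 52.2) of the 239 with 1 match, and 74.3% (56.7 to 87.5) of the 35 with 2 or more. Over all peaks at 72 h the share was 28.4%. It was not counted there by TEAD match or GC content, so these differences are not shown to be particular to lncRNA promoters. Promoters with and without a match had a median fold enrichment at 72 h of 10.4 and 6.48. The shares at 48 h with and without a match are also given by base composition, whose part in the difference was not tested. With a GC content under 60%, 51.6% (44.8 to 58.3) of 223 promoters with a match and 28.4% (24.8 to 32.2) of 598 without had a peak at 48 h. With a GC content of 60% or more, it was 39.2% (25.8 to 53.9) of 51 and 8.22% (5.61 to 11.5) of 365.

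The AP-1 motif, TGACTCA or TGAGTCA, was found at 17.2% (15.2 to 19.4) of the summits and in 3.23% (2.57 to 4.01) of the outer windows. It varied less among the groups, from 22.8% (12.7 to 35.8) of promoters at 24, 48 and 72 h and 22.4% (17.3 to 28.2) of those at 48 and 72 h to 15.9% (13.5 to 18.5) of those at 72 h alone and 11.1% (3.71 to 24.1) of those without Dox and at 72 h. AP-1 is the dimer of FOS and JUN proteins, and it often shares enhancers with TEAD. TEAD and AP-1 matches stood together in 39 promoters, or 3.15%, and 789, or 63.8%, had neither.

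ETS and SP/KLF motifs, which are common at CpG-rich promoters of active genes, were also denser at the summits than around them, and were most frequent at promoters called without Dox and at 72 h. The ETS motif CCGGAAG lay at 6.31% (5.02 to 7.81) of summits against 0.808% (0.494 to 1.25) of outer windows, and the SP/KLF motif GGGCGGG at 16.5% (14.5 to 18.7) against 2.83% (2.21 to 3.56). Over windows centred on the 35692 lncRNA start sites, bound or not, the shares were 3.75% (3.56 to 3.96) and 8.15% (7.87 to 8.44). These lay above the outer windows and below the summits, so the contrast with start sites was smaller than that with the outer windows. ETS matches were found at 20.0% (9.58 to 34.6) of promoters called without Dox and at 72 h, 8.70% (1.07 to 28.0) of those in all 4 lists, 6.82% (5.22 to 8.72) of those at 72 h alone, 2.49% (0.919 to 5.34) of those at 48 and 72 h and 1.75% (0.0444 to 9.39) of those at 24, 48 and 72 h. For SP/KLF the shares in the same order of groups were 33.3% (20.0 to 49.0), 21.7% (7.46 to 43.7), 18.9% (16.3 to 21.7), 6.64% (3.84 to 10.6) and 1.75% (0.0444 to 9.39). The 20 promoters with other combinations of lists are not included in these shares. At protein-coding promoters ETS and SP/KLF matches were at 14.1% and 37.3% of summits, and at distal sites at 1.06% and 3.28%. The RUNX motif TGTGGTT was closer to its surroundings, at 5.66% (4.44 to 7.10) against 3.19% (2.54 to 3.96). A match is a description of letters, and the factors were not measured.

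**Figure D4:**
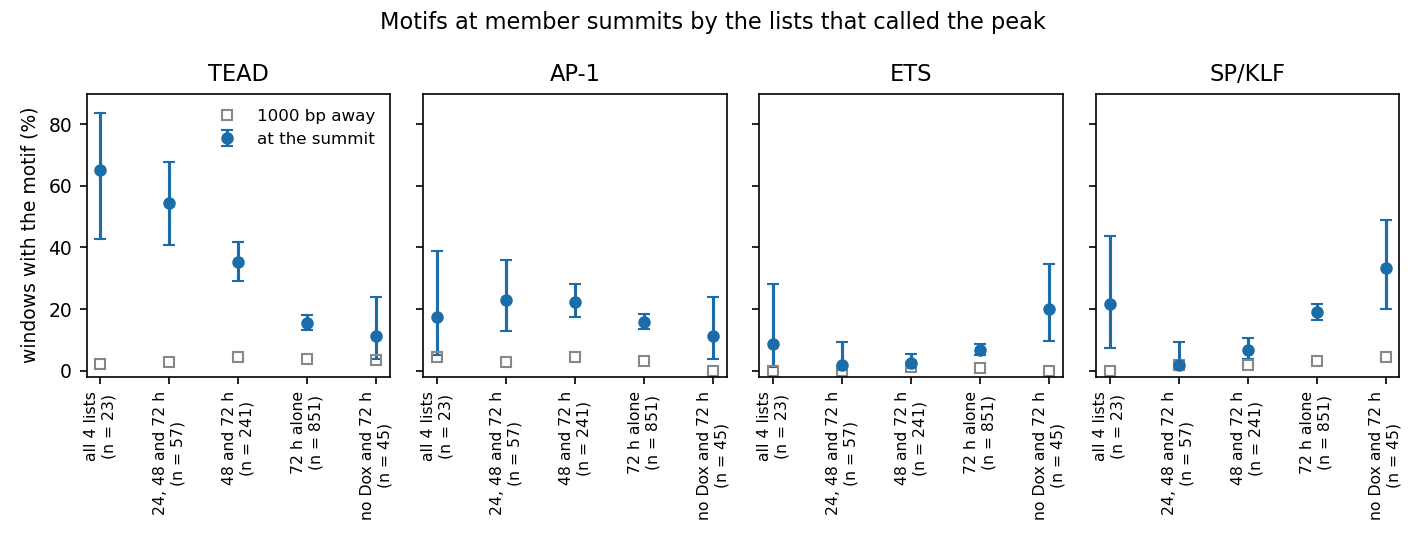
Share of lncRNA promoter windows holding a TEAD, AP-1, ETS or SP/KLF motif (y axis, percent), by the lists that called the promoter (x axis, with the number of promoters); filled points are the windows at the summit with exact 95% binomial intervals, and open squares the windows 1000 bp away. The TEAD share goes from 65.2% in all 4 lists to 15.5% at 72 h alone and 11.1% without Dox and at 72 h, whereas ETS (20.0%) and SP/KLF (33.3%) are at their highest in the last of these.

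The median GC content of the 201 bp around the summit was 53.7% (quartiles 46.3 and 63.2), between 67.2% at protein-coding promoters and 45.3% at distal sites, and above the 48.8% of unselected lncRNA start sites. It was 45.3% at promoters called at 24, 48 and 72 h, 47.8% at those called at 48 and 72 h, 56.2% at 72 h alone, 56.7% in all 4 lists and 65.7% without Dox and at 72 h. The ratio of observed to expected CpG had a median of 0.361 over all 1237 and 0.830 in the last group, beside 0.825 at protein-coding promoters and 0.187 at distal sites. Of the 416 promoters with a GC content of 60% or more, 11.1% had a peak without Dox and 12% had one at 48 h, and of the 821 others 4.63% and 34.7%. GC-rich and GC-poor lncRNA promoters thus stood in opposite order in these lists, and the effect of base composition on the recovery of fragments was not tested. The same split by GC content was not counted over all peaks.

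Summits gathered at the start sites. In 451 promoters, or 36.5% (33.8 to 39.2), the summit was within 100 bp of the TSS, and in 721, or 58.3% (55.5 to 61.1), within 250 bp. It lay upstream in 697 and downstream in 537. The fullest 100 bp were those just before the TSS, with 281 summits. Since the nearest of several annotated starts was taken, these distances are the shortest possible. The 721 near summits had a median GC content of 57.2% and a TEAD match in 17.5% (14.8 to 20.4), and 23% had a peak at 48 h. The 307 summits at 500 bp or more had 49.3%, 31.6% (26.4 to 37.1) and 35.2%, so the outer ones were nearer to distal sites in all 3 measures.

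**Figure D5:**
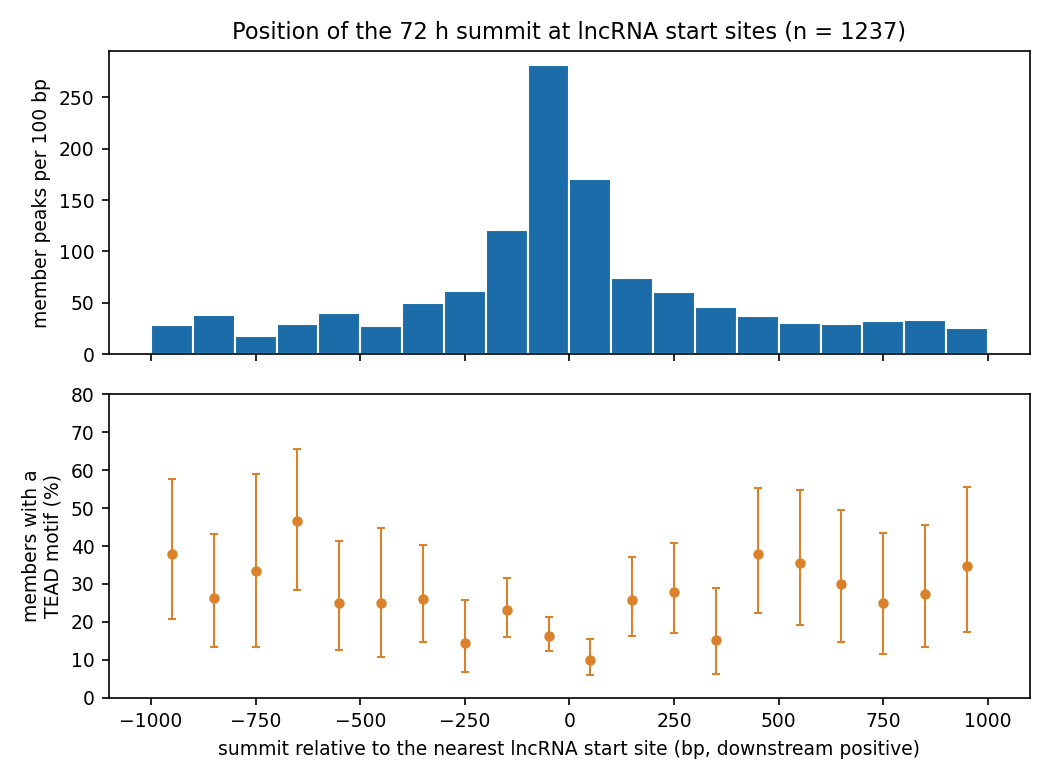
Number of lncRNA promoter summits at 72 h in steps of 100 bp (upper panel) and share of them with a TEAD motif in percent with exact 95% binomial intervals (lower panel), by distance from the nearest lncRNA TSS (x axis, bp, downstream positive). The 100 bp before the TSS hold 281 summits, of which 16.4% have the motif, and the 100 bp after it 170, of which 10.0% have it.

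In 123 promoters, or 9.94%, lncRNAs started within 1 kb of the summit on both strands. These had a median GC content of 64.7%, a TEAD match in 12.2% (6.99 to 19.3) against 23.2% (20.8 to 25.8) of the 1114 on 1 strand, and a peak at 48 h in 13.8% against 28.5%. In these measures the promoters with starts on both strands lay nearer to the protein-coding promoters, with 67.2%, 11.1% and 9.32%. Whether the starts diverged was not examined. Of all 1237 promoters, 209 lay inside a protein-coding gene, 187 in an intron and 22 in an exon, and in 163 of the 209 the lncRNA ran antisense to every host. The median distance to the nearest protein-coding TSS was 35725 bp. Start sites of pseudogenes lay within 1 kb of 80 summits and those of microRNA genes within 1 kb of 14.

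Of 14015 lncRNA genes with a TSS more than 3 kb from a protein-coding TSS, 1135 had such a peak, a background of 8.10%. The share differed among classes of name. Host genes of snoRNAs, whose introns carry guide RNAs for ribosomal RNA modification, had a peak in 17 of 24 cases, or 70.8% (48.9 to 87.4). Host genes of microRNAs had one in 21 of 74, or 28.4% (18.5 to 40.1). Intergenic lncRNAs with LINC names had one in 258 of 2193, or 11.8% (10.4 to 13.2), divergent lncRNAs in 12 of 115, or 10.4% (5.51 to 17.5), antisense lncRNAs in 78 of 953, or 8.18% (6.52 to 10.1), and those known by an identifier in 631 of 9860, or 6.40% (5.92 to 6.90). Expression was not measured here, so the part of promoter activity in these shares was not tested. A gene counted whichever of its annotated starts had the peak, and the number of starts per gene was not compared among the classes.

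Of the snoRNA hosts' 18 peaks 16 were called at 72 h alone, or 88.9%, against 67.9% over all peaks at 72 h and 80.1% at protein-coding promoters. Fold enrichments of the 18 lay between 4.30 and 15, with a median of 7.40. The strongest was SNHG16 (chr17:76556807-76558635), with 15 at 72 h and no earlier peak, its summit 18 bp before the TSS. A second SNHG16 peak (chr17:76561352-76563069), 852 bp after another of its starts, had 6.70 at 48 h and 9.39 at 72 h and held a TEAD match. SNHG7 (chr9:136727761-136728924) was the single host with a peak without Dox, at 5.79, and had 10.3 at 72 h. SNHG12, SNHG15, SNHG17, SNHG8 and DANCR lay between 6.14 and 8.64 at 72 h alone. Their summits were a median of 44.5 bp from the TSS, with a median GC content of 63.7%, and 2 of 18 held a TEAD match.

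Of the 31 peaks at 21 microRNA hosts, 21 were at 72 h alone (67.7%, against 67.9% over all peaks at 72 h), 9 had a peak at 48 h (29.0% against 28.4%), 3 at 24 h (9.68% against 6.12%) and 2 without Dox (6.45% against 5.56%), all near the background. Of the 1141 lncRNAs, 47 contain a microRNA gene, and 6 of these share the let-7 seed. Their mature sequences from RefSeq are given because these hosts include some of the strongest promoters, with the seed (bases 2 to 8) in capitals.
hsa-let-7a-5p: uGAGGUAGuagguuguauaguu
hsa-let-7b-5p: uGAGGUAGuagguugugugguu
hsa-let-7c-5p: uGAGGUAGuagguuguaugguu
hsa-let-7i-5p: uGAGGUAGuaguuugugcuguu
hsa-miR-4458: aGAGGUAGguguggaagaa
hsa-miR-100-5p: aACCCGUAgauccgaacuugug
hsa-miR-99a-5p: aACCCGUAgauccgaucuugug
The last 2 share another seed and come from MIR100HG and MIR99AHG. Let-7a lies in MIRLET7A1HG, MIR100HG and MIRLET7BHG, let-7b in MIRLET7BHG, let-7c in MIR99AHG and let-7i in MIRLET7IHG. Let-7 microRNAs repress growth-promoting messenger RNAs such as that of LIN28B.

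These let-7 hosts did not share a time course. MIRLET7A1HG was in all 4 lists, as given above. MIRLET7BHG (chr22:46084608-46086518) had no peak without Dox and 6.63, 8.36 and 19.4 at 24, 48 and 72 h. MIR100HG (chr11:122038058-122039436) had no peak without Dox and 11.6, 20.8 and 23.5. MIRLET7IHG (chr12:62602132-62604071) had 3.51 at 48 h and 10.5 at 72 h, and the stronger MIR99AHG peak (chr21:16587676-16589596) had 11.8 at 72 h alone. MIR4458HG (chr5:8457313-8458043) was the weakest, with 5.27 without Dox and 3.44 at 72 h.

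Other microRNA hosts were called late. MIR365BHG (chr17:31571071-31571899) and MIR193BHG (chr16:14300820-14303341), which carry copies of miR-365 with the same mature 3p sequence, had 15.8 and 12.1 at 72 h alone. MIR222HG (chrX:45769744-45770473) had 8.46. MIR17HG, the host of the miR-17-92 cluster, had neighbouring peaks of 6.32 and 6.18 at separate starts, and MIR34AHG (chr1:9181700-9182810), a p53 target, had 5.96. MIR205HG (chr1:209427906-209429409), the host of a basal epithelial microRNA, had 4.49. These values lay below the median of 7.13 for all lncRNA promoters, except those of MIR365BHG, MIR193BHG and MIR222HG.

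Among 45 annotated lncRNAs described in cancer or epithelium, 17 had a peak that met the rule, or 37.8% (23.8 to 53.5). The 8.10% given above is over genes with a start beyond the protein-coding limit, which 19 of the 28 without a peak have. NEAT1, the scaffold of paraspeckles, had the highest value and the widest interval of them (chr11:65418215-65423496, 5282 bp). Its fold enrichment was 5.06 without Dox and then 4.99, 3.54 and 26.3 at 24, 48 and 72 h, but the peak without Dox had its summit 3478 bp from that at 72 h and counts through the width of the interval, whereas those at 24 and 48 h lay 93 and 205 bp from it. MALAT1 (chr11:65497037-65499261), its nuclear neighbour, had 10.1 at 72 h and an overlapping peak of 5.19 at 48 h, whose summit was 1291 bp away. CYTOR (chr2:87452479-87455817) had 5.38, 11.2 and 22.1 at 24, 48 and 72 h, with the 24 h summit 1047 bp from that at 72 h, and its summit sequence has a near-identical copy elsewhere in the genome. LINC00472 (chr6:71404167-71405235) had 11.9, 13.2 and 19.8 and held both a TEAD and an AP-1 match.

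LINC-PINT (chr7:130911916-130913950), a p53-induced lncRNA, had 10.8 at 48 h and 18.9 at 72 h, and LINC01133 (chr1:159960279-159961606) had 4.45 and 14.9. HIF1A-AS3 (chr14:61750729-61751466), antisense to the hypoxia regulator HIF1A, had 14.0 at 72 h alone. KCNQ1OT1 (chr11:2698528-2700986), the imprinted antisense transcript of KCNQ1, was among the weakest, with 4.13 at 72 h alone. Of the 30 peaks at these lncRNAs 20 were at 72 h alone, a share near the 67.9% over all peaks. Listed lncRNAs with a start beyond the protein-coding limit and no such peak included H19, HOTAIR, MEG3, UCA1, FENDRR, CRNDE and MIAT.

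Most lncRNAs had 1 peak (1071 of 1141), 59 had 2 and 11 had 3 or more. Peaks of the same gene could share their nearest start, as some did at NEAT1 and LINC01588. MIR100HG had 7, of which 5 were at 72 h alone, with values between 3.90 and 23.5. LINC00511 also had 7, of which 6 were at 72 h alone, and its strongest (chr17:72338781-72339957), the only 1 of them in the lists at 24 and 48 h, had 6.35, 5.65 and 19.4. CASC19 had 6 and PVT1 had 5, both on chromosome 8 around MYC. The strongest at PVT1 (chr8:127853434-127855531), 115152 bp from the MYC TSS, had 5.09 without Dox and then 5.89, 7.53 and 31.9 at 24, 48 and 72 h. The strongest at CASC19 (chr8:127221788-127223613) had 6.13, 11.2 and 18.6 at 24, 48 and 72 h. MYC was the nearest protein-coding gene of 8 lncRNA promoter peaks, more than any other gene, followed by POU5F1B with 7. The annotated lncRNA starts near each gene were not counted, so these numbers have no background and do not show a preference for these loci.

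Peaks just inside and outside the limits overlapped in strength. The 3 nearest to 1 kb on the inside, LINC02497, ENSG00000256757 and ENSG00000251417, had fold enrichments of 8.72, 7.10 and 4.29, and the 3 on the outside, near ENSG00000286804, ENSG00000289159 and ENSG00000223774, had 5.18, 31.4 and 14.6. At the 3 kb limit those inside, ENSG00000274415, ENSG00000233078 and LINC01028, had 35.3, 4.01 and 7.32, and those outside, near ENSG00000285622, ENSG00000261996 and ENSG00000272849, had 6.44, 3.82 and 5.58. LINC02497 (chr4:31169668-31170576) was 1 of the 15 promoters lower at 72 h than at 48 h, with 6.02, 12.8 and 8.72 at 24, 48 and 72 h.

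The start sites of every annotated transcript were used. With the start of the gene record alone, 1253 peaks met the rule, of which 937 were among the 1237, and 76 of 146 named promoters remained. The peaks described at LINC02537, ENSG00000230773, ENSG00000226919, LINC01503, LINC00472, LINC-PINT, LINC01133, MIR99AHG, PVT1 and CASC19, the second at SNHG16, 1 of those at MIR17HG, the SNHG12 peak and every peak of MIR100HG, MIRLET7BHG and LINC00511 were among those that left the set, since they lie at starts of other transcripts. Those at ENSG00000250934, LINC01836, MIR130AHG, MIRLET7A1HG, NORAD, JPX and MALAT1 and the widest at NEAT1 remained. Reads from duplicated sequence cannot be placed with certainty. In 47 promoters, or 3.80%, the 201 bp at the summit had a copy of at least 98% identity elsewhere on chromosomes 1 to 22, X and Y, and 37 of these were at 72 h alone.

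RefSeq promoter sequences, from 250 bp before to 50 bp after a gene's start, matched 317 of the 1141 lncRNAs by symbol. Of these 12% held an AP-1 match, against 4.95% of the 35116 promoters in that table, 7.57% a TEAD match against 6.64%, and 23% an SP/KLF match against 33.1%. The TEAD share there was near that of all promoters. It was 22.2% in the 201 bp windows at the 1237 summits, but those differ from the RefSeq sequences in width, position and genes covered.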

How the data were processed

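TAZ binding was measured by ChIP followed by sequencing in 4 conditions, with 1 TAZ and 1 IgG library each (8 libraries), grouped by their titles. The study's methods and the submitters' processing notes say that the authors trimmed reads, mapped them to hg38 by BWA and called peaks by MACS2 with the false discovery rate set to 0.01, 1 list per condition. Tool versions, and whether IgG was the caller's control, are not given in the sources used. The deposited fold enrichment is a ratio of the authors' pileup over the local background with a pseudocount of 1, and the deposited p-values and q-values are −log10 values from MACS2. No total read numbers are given, so depth was read from the fragments solved from ratio and p-value together, which returned 100% of the deposited p-values within 0.003.

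Summits were placed against the TSSs of every transcript of GENCODE 44 on chromosomes 1 to 22, X and Y. Protein-coding promoter peaks had a summit within 1000 bp of a protein-coding TSS, and distal peaks lay more than 3000 bp from any TSS. Overlap meant at least 1 bp, and of several overlapping peaks the one with the highest fold enrichment was used. Motif searches covered both strands of 201 bp windows. Besides those spelled out, YY1 (AAGATGGC), NFY (CCAATCA or CCAATGA), CREB (TGACGTCA), E-box (CACGTG) and CTCF motifs were searched, and each lay at 0.647% to 5.01% of the summits. Copies were sought with minimap2 2.31-r1302 at 98% identity over 90% of the window. Python 3.11.15, numpy 2.4.6, scipy 1.17.1, pysam 0.24.0 and matplotlib 3.10.9 were used, and the steps were tested on simulated data.

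The rules for naming picked the 15 strongest promoters at 72 h and the strongest by the lists that called them (10 each for all 4 lists, for 24, 48 and 72 h, and for 72 h alone, and 5 for no Dox and 72 h). They also picked lncRNAs with 3 or more peaks, 3 peaks on each side of each limit, and lists of microRNA hosts, snoRNA hosts and described lncRNAs (50 symbols, of which 45 are annotated). Only some of the promoters picked by these rules are described in the text, and that choice followed no fixed rule. Genes named as lost or kept under another start were chosen after their values were seen. The set of promoters and the lists were chosen with earlier results of these data known. The authors deposited no replicate, so no test was made. Alternatives were other distance limits and starts, a stricter −log10 q, other overlaps, other windows and, chosen after seeing the data, leaving out promoters with copies.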

Additional observations from a re-analysis of the deposited data

How the results depend on the processing

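Of 76 values recomputed under 10 alternatives, 51 stayed within the 95% interval of the value given above (numbers of peaks within 1.5 times), and 25 moved out of it. A change of direction was defined for the ratios of fold enrichment between times alone, and 0 of them changed direction. With the start of the gene record, the shares overlapping a peak of the list without Dox, that at 24 h, that at 48 h and of no earlier list were 8.86%, 5.19%, 21.6% and 72.0%, the median fold enrichment 6.81, the TEAD and AP-1 shares 19.5% and 14.3%, and the median GC content 58.7%, and 76 of 146 named promoters were kept. With summits within 500 bp of the lncRNA TSS, the share at 48 h was 24.4%, the TEAD share 19% and the median GC content 56.2%. With −log10 q of at least 5 in every list, the share without Dox was 5.19% and the median fold enrichment 7.43. With 50% of both intervals shared, the 4 shares were 2.51%, 0.485%, 16.3% and 81.5%, and the ratios of 72 h to no Dox, 24 h and 48 h were 1.27, 1.62 and 1.82. Windows of 50 bp to each side gave TEAD and AP-1 shares of 17.6% and 10.1%, and windows of 200 bp 27.6% and 22.9%. GC content over the whole peak was 52.1%. The cause of these shifts was not tested, beyond the narrower windows and stricter overlap holding less by construction.

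Counting a summit inside the other peak as overlap, a limit of 10000 bp to protein-coding TSSs, and leaving out promoters with copies, an alternative chosen after seeing the data, moved no value out of its interval. The order of protein-coding promoters, lncRNA promoters and distal sites in the shares overlapping each earlier list was the same in 21 of 21 recomputed comparisons. These are not independent, since some settings changed the lncRNA promoters alone and kept most of them. At 24 h the order was also close, at 7.40% against 7.63% at distal sites with the limit of 10000 bp. No paired analysis was possible because each condition had 1 TAZ library. Without a second library of a condition, times and libraries cannot be told apart, and the median of 20 to 37 fragments at a summit limits what the lists call.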

Other observations

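Of the 1237 lncRNA promoter peaks, 297 belonged to LINC genes, 653 to genes known by an identifier, 86 to antisense and 14 to divergent lncRNAs. A TEAD match lay at 6 of the 14 divergent summits, or 42.9% (exact 95% interval 17.7 to 71.1), and an AP-1 match at 5, or 35.7% (12.8 to 64.9), against 22.2% and 17.2% of all 1237, with intervals that overlap in both cases. Their median GC content was 47.8%. The 86 antisense promoters were close to all in fold enrichment (median 6.78) and in the share with a peak at 48 h (26.7%), and 3.49% of them had a peak without Dox.

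The lncRNA share of a chromosome's peaks at 72 h ranged, over chromosomes 1 to 22 and X, from 1.83% on chromosome 19 (25 of 1367) to 5.47% on chromosome 21 (25 of 457). Some protein-coding genes were the nearest gene of several of these peaks, again without a count of the lncRNA starts near them. Besides MYC and POU5F1B, the nearest gene was BLID for 6 peaks, all from MIR100HG, IRF2BP2 for 5, and KLF6, CCNL1 and TOMM20 for 4 each.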
